A study of Homo sapiens with 8 samples.

Results

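METTL3 peaks that lie near the start of a protein-coding gene were described in the prostate cancer cell lines LNCaP and PC3. A peak was a member when exactly 1 protein-coding gene span on chromosomes 1 to 22 or X contained the whole peak and its midpoint lay in the first of 3 equal parts of that span, counted in the direction of the peak's own strand. This gave 502 members in LNCaP, of 2486 peaks that could be placed in this way and 2616 listed, and 148 members in PC3, of 998 placed and 1033 listed. Both lists together hold 650 members of 3649 listed peaks. The LNCaP members lay in 358 genes and the PC3 members in 87 genes.

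RNA immunoprecipitation followed by sequencing (RIP-seq) recovers the RNA bound by a protein with an antibody, here one against METTL3, and sets it against the RNA of the unselected lysate (input). The labels give 8 samples in 4 groups: METTL3 IP and input of LNCaP, grown in RPMI-1640 with 20% fetal bovine serum, and METTL3 IP and input of PC3, grown in the same medium with 10%. Each group had 2 replicates, from stranded libraries, and the rabbit IgG control named in the protocol was not used here. LNCaP cells respond to androgen and PC3 cells grow without it, both lines derive from metastases, and no genetic change or drug treatment is given for either. Each line has 1 list of peaks with 1 fold and 1 p-value per peak, so no replicate error can be given for any value, the sequencing depth is unknown, and the 2 lists differ in cell line, serum and whatever depth they were made from. Folds and p-values are the authors' own and were made separately in each list. The fold is read as METTL3 IP over input from the design, since its denominator is not named.

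METTL3 is the methyltransferase that, together with METTL14, places N6-methyladenosine (m6A) on RNA, most often within a short consensus around GGAC. In mature mRNA, m6A is best known for its enrichment near stop codons and in 3′ untranslated regions, with a smaller amount in the 5′ part of transcripts and near transcription starts. The enzyme works in the nucleus on nascent RNA, which still holds introns, and it has been described at promoters. A span counted over the whole gene includes introns, so the first part of a gene span can hold first exons, long first introns or coding exons.

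The name of the set was checked against the annotated strand of each gene. RefSeq's table of transcription starts on GRCh38.p14 gave a strand for 335 of the 398 genes with a member, and so for 421 of the 502 LNCaP members and 133 of the 148 PC3 members. Of these, 395 LNCaP and 118 PC3 members lay on the strand of their gene, in its 5′ part. The remaining 26 LNCaP members and 15 PC3 members lay on the opposite strand, and by the direction of the gene itself all 26 and all 15 fell into the last part of its span. Of all placed peaks with a strand for their gene, 2.54% in LNCaP and 3.03% in PC3 lay opposite to it. They meet the rule through the direction of their own strand and not that of the gene, although a listed start of the gene can still be near: the NAV1 peak covered one, the midpoint of the REPIN1 peak lay 2908 bp after one, and the TRPM2 peaks lay upstream of one (midpoint at -5593 bp). They are described apart further below, but they remain in all counts, shares and medians given for the members as a whole.

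How near a member lay to the start depended on the point measured. The midpoint of a LNCaP member lay at a median of 8568 bp from the start of the gene span (95% interval of the median 7358 to 10600 bp), and that of a PC3 member at 9510 bp (7992 to 12666 bp). For an opposite-strand member this start, counted along the strand of the peak, is the 3′ end of the gene. Over the members on the strand of their gene alone, the medians were 8518 bp in LNCaP and 8978 bp in PC3. In LNCaP, 62 members (12.4%, 95% Wilson interval 9.76 to 15.5) lay within 1000 bp of the span start and 270 (53.8%) within 10000 bp. In PC3, 13 members (8.78%, 5.21 to 14.5) lay within 1000 bp and 77 (52.0%) within 10000 bp. By the 5′ edge of the peak, 139 LNCaP members (27.7%) and 28 PC3 members (18.9%) began within 1000 bp of the span start. From the nearest annotated start, where the gene has one in the table, 15.9% of LNCaP and 12.8% of PC3 midpoints lay within 1000 bp. Of the members on the strand of their gene, 21 of 395 in LNCaP (5.32%) and 5 of 118 in PC3 (4.24%) covered an annotated start. The rule limits this share, because a peak held whole inside the span cannot reach across a start at the edge of the span. In LNCaP 12 of these 21 were longer than 10000 bp, so that the start was only 1 point of a long region.

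The sequences below are those in which a peak of at most 2000 bp covered an annotated start and began within 50 bp of it in LNCaP, which 4 members did, together with the PC3 member whose edge fell on a start. They are shown because they place the 5′ edge of a METTL3 peak against an annotated start base by base. The starts shown for SH3BP4, SLC4A4 and PRKCSH lie inside the gene span, since their peaks begin before them and are held whole by the span. Each run gives 60 bases before the start and 30 bases from the start on, from RefSeq on GRCh38.p14, 5′ to 3′ on the strand of the gene, and capitals mark the bases inside the peak. They come from chr2:234978643-234978732 on the plus strand for SH3BP4, chr4:71187199-71187288 on the plus strand for SLC4A4, chr19:11436013-11436102 on the plus strand for PRKCSH, chr3:49674291-49674380 on the plus strand for APEH and chr12:48852134-48852223 on the minus strand for DDX23.
SH3BP4: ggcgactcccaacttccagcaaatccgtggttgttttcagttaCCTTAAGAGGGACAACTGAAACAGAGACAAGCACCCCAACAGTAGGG
SLC4A4: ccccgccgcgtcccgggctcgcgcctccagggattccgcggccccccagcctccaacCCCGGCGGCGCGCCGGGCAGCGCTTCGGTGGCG
PRKCSH: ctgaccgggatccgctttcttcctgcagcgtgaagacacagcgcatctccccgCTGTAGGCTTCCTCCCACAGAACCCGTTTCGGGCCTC
APEH: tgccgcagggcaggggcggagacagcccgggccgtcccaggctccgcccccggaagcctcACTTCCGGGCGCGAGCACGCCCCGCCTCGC
DDX23: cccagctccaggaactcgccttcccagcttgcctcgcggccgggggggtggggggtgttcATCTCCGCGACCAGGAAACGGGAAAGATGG

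The peak in SH3BP4, which encodes an adaptor of endocytosis, spanned 51 bp with a fold of 6.01 and began 17 bp before the start. The peak in SLC4A4, which encodes a sodium bicarbonate cotransporter, also spanned 51 bp, had a fold of 3.99 and began 3 bp before the start. PRKCSH encodes the beta subunit of glucosidase II, and its peak, from position 11436066 to 11436166, had a fold of 6.20 and began 7 bp before the start. The APEH peak, in the gene of an acylpeptide hydrolase, spanned 1546 bp with a fold of 6.14 and began on the start base itself. In PC3, the peak of DDX23, a DEAD-box protein of the spliceosome, ran for 4827 bp with a fold of 3.91 and also began on the start base. In the LNCaP list 3 peak starts fall 1 bp before the start of a gene span, so list positions may count from 0 and a printed edge may be off by 1 bp.

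Among the members nearest to the start of their gene span, short peaks prevailed. In LNCaP these were RNF111 (a SUMO-targeted ubiquitin ligase) with a midpoint at 50.5 bp and a fold of 3.46, NASP (a histone chaperone) at 54.0 bp with a fold of 7.08, TTLL12 at 59.0 bp with 4.65, GALNT10 (which starts O-linked glycans) at 71.0 bp with 4.63, and U2AF2 (the large subunit of the splicing factor U2AF) at 72.5 bp with 6.55. In PC3 they were ABCF1 (a translation factor) at 58.0 bp with a fold of 2.41, SNRNP200 (an RNA helicase of the U5 snRNP) at 121 bp with 5.401, ASXL1 (a Polycomb-associated protein) at 174.5 bp with 5.87, PARP1 (a poly(ADP-ribose) polymerase) at 210.5 bp with 3.25, and NRDC (a metalloendopeptidase) at 313.5 bp with 3.92. The fold of the ABCF1 peak was the lowest of all PC3 members. All of these 10 peaks lay on the strand of their gene.

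The 62 LNCaP members within 1000 bp of the span start had a median fold of 4.59 (4.38 to 4.87), against 5.27 (5.04 to 5.68) for the 440 members farther away. Their median span was 76 bp against 1860 bp, and 56 of the 62 were at most 300 bp long. A peak this close to the end of a span can only be short, because the rule holds each peak whole inside the span. Only 1 of the 62 had a fold of at least 10, the 51 bp peak of the laminin chain gene LAMB2 with 13.0, where 12.7% of all placed LNCaP peaks had such a fold. In PC3 the 13 members within 1000 bp had a median fold of 3.92 (3.25 to 5.401) and the other 135 a median of 5.38 (5.11 to 5.98). The 196 LNCaP members of at most 300 bp, which include these 56, had a median fold of 4.81 (4.63 to 5.29). Of these 196, 32 (16.3%) had a fold of at least 10, against 14.1% of all LNCaP members. The LAMB2 peak was the only 1 of these 32 within 1000 bp of the span start, although 56 of the 196 lay there and 140 farther away. The median fold of those 140 was not taken. Whether nearness or shortness goes with the lower folds was not tested.

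**Figure D1:**
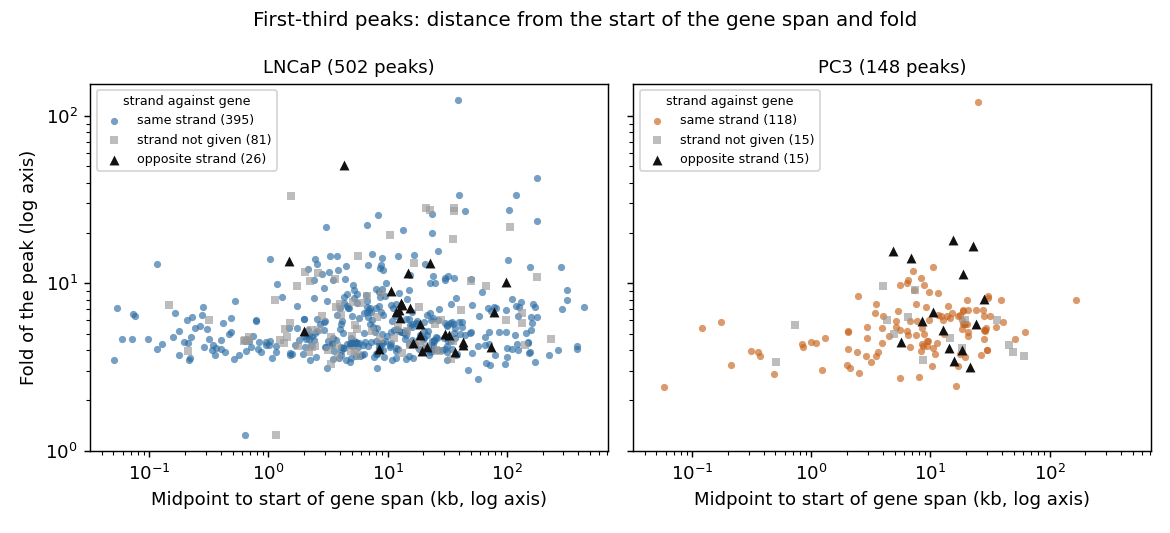
Distance of the midpoint of each member from the start of its gene span (kb, log axis) against the fold of the peak (log axis), with 502 LNCaP peaks on the left and 148 PC3 peaks on the right; colours give the strand of the peak against that of its gene. The members within 1000 bp of the span start lie low in both panels, and none on the opposite strand lies among them.

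The first part held 20.2% (18.7 to 21.8) of the placed LNCaP peaks, the middle part 34.0% and the last part 45.8%. In PC3 these shares were 14.8% (12.8 to 17.2), 28.9% and 56.3%. Members were thus the smallest of the 3 classes in each line. Within the first part, the 3 ninths of the span held 132, 159 and 211 LNCaP members and 39, 54 and 55 PC3 members, level in PC3 between the last 2. In LNCaP the finer bins, each a thirtieth of the span, did not rise evenly: the bin at the start held 55 peaks, more than the next 5 with 39, 25, 43, 45 and 46. Counted by the strand of the gene instead, over peaks whose gene has one, the first part held 19.5% in LNCaP and 14.9% in PC3.

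**Figure D2:**
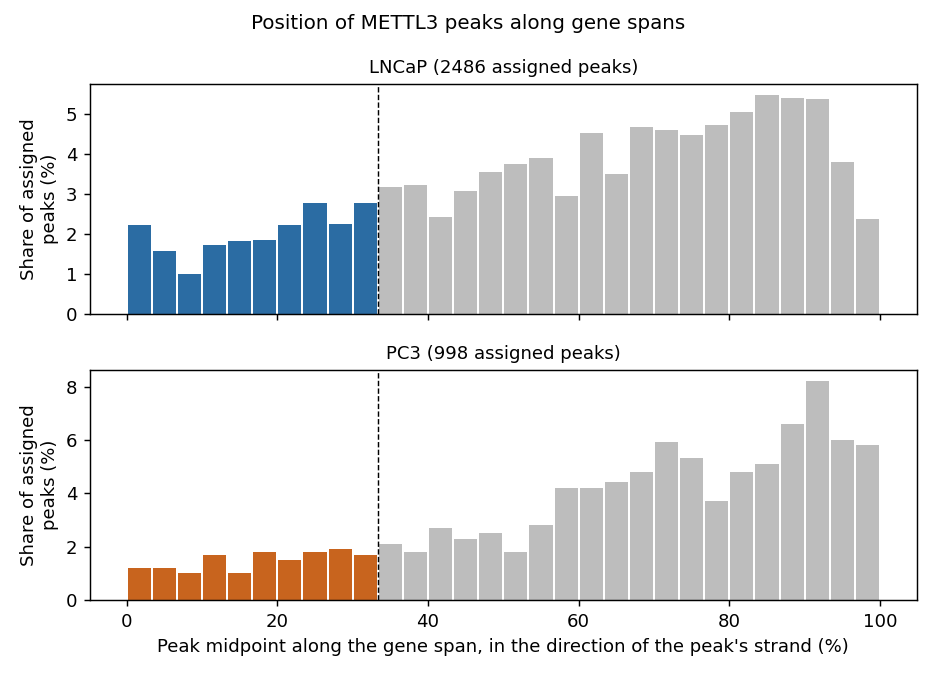
Share of placed peaks (%) in 30 equal bins along the gene span, in the direction of the strand of the peak, for 2486 LNCaP peaks (top) and 998 PC3 peaks (bottom); coloured bars left of the dashed line are the members. In LNCaP the first bin holds 55 peaks and the third 25, and the highest bar is the 26th bin with 5.47% before a fall to 2.37% in the last; in PC3 the highest is the 28th bin with 8.22%, and the last holds 5.81%.

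Most genes had a single member. In LNCaP 263 of 358 genes held 1 member and 31 held 3 or more, and in PC3 56 of 87 genes held 1 and 11 held 3 or more. In 176 LNCaP genes (49.2%) and 28 PC3 genes (32.2%), members were the only peaks of the gene. Another 120 LNCaP genes (33.5%) and 42 PC3 genes (48.3%) also had a peak in the last part. The genes with most members in LNCaP were CHD4 with 7, NUMA1 with 6, PRPF8 with 5, and UTRN and RNF213 with 4 each, as had SNRNP200, BPTF, BMS1, CEP250, CDK5RAP2, DYNC2I1 and BDP1. In PC3 they were AHNAK with 20, CHD4 with 5, and TLN1, FLNA and DYNC1H1 with 3 each, as had TOP2A, HCFC1, PSMD2, ANPEP, BPTF and RBM19.

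Every listed peak had an FDR of at most 0.05, so 100% of both lists passed that threshold and passing it says nothing about the members. The median fold of the members was 5.15 in LNCaP (4.92 to 5.39), against 5.31 in the middle and 5.29 in the last part. In PC3 it was 5.33 (4.95 to 5.74), against 5.50 in the middle and 6.05 (5.82 to 6.39) in the last part. Folds of at least 10 were found in 71 LNCaP members (14.1%, 11.4 to 17.5), against 12.7% of all placed LNCaP peaks. In PC3 10 members reached it (6.76%, 3.71 to 12.0), against 14.4% of all placed PC3 peaks and 17.6% (14.7 to 21.0) of those in the last part. The 95% intervals of the first and the last part did not overlap in PC3, while those of LNCaP did. Without the 20 AHNAK members the PC3 median was 5.29, no nearer to that of the last part. Its interval over the remaining 128 members, 4.73 to 5.865, overlaps that of the last part. The share with a fold of at least 10 was then 7.81% (4.30 to 13.8), still below the interval of the last part. No test was made between peaks, since peaks of a gene share their source.

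The largest folds of the LNCaP members stood far from the median. The peak of EP400, the ATPase of a histone acetyltransferase and remodelling complex, had a fold of 124 (p = 5.54e-05 in the authors' list, rank 536 of 2616 by p), although the PC3 peak that overlapped it had a fold of 5.87. ARIH2, a ubiquitin ligase, had 51.1 with a peak on the opposite strand. LSAMP, a neuronal adhesion protein, had 42.3 over a span of 358491 bp, and ST6GALNAC3, a sialyltransferase, had 33.7 over 239091 bp. SEMA4D, a membrane semaphorin, had 33.7 with a p of 2.60e-12 from the authors, rank 38. EEF1D, a subunit of translation elongation factor 1, had 33.2 over 151 bp. Other members of the 10 with the largest folds belonged to the centrosome linker CEP250 with 28.4 over 878 bp, the cGMP phosphodiesterase PDE9A with 27.6 and the zinc finger gene ZNF385B with 27.5. Among these 10, only the EP400 peak overlapped a PC3 peak, as did 21.8% of all placed LNCaP peaks. At the low end, peaks of DCC and ADAMTS1 had folds of 1.25.

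The smallest p-values of the LNCaP members belonged to other genes, apart from PDE9A. A 76 bp peak of SPON2, a secreted matrix protein, had p = 2.14e-26 by the authors' analysis and a fold of 11.9. It was followed by a 10699 bp peak of the fibronectin gene FN1 with p = 6.19e-23 in the authors' list and a fold of 8.63, and by a 3438 bp peak of NCL, the gene of nucleolin, with p = 1.41e-20 and a fold of 5.21. In the authors' list PDE9A was next with p = 1.20e-19, and GAS6, a ligand of the TAM receptor kinases, had p = 1.48e-16 and a fold of 8.80. The FN1, NCL and GAS6 peaks overlapped PC3 peaks, with PC3 folds of 5.98, 3.05 and 3.49, and the SPON2 and PDE9A peaks overlapped none.

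In PC3, the largest fold of a member was that of the histone acetyltransferase gene EP300, with 120.5 over 51 bp. Its p of 5.65e-06 ranked 999 of 1033, near the end of the list. Below it, 5 of the next 9 peaks lay on the strand opposite to their gene, in MPRIP (18.1), TRPM2 (16.8), LMLN (15.6), SPTBN1 (14.3) and SVIL (11.4). The other 4 were 2 peaks of the remodeller gene CHD4 with folds of 12.5 and 11.9, a 51 bp peak of the histone methyltransferase gene SETD1A with 10.8 and a 76 bp peak of the kinase gene MTOR with 10.4. Of PC3 members with a strand for their gene, 15 of 133 (11.3%) lay opposite to it, against 3.03% of all such placed peaks. The rule itself shapes that share, and nothing is read from the 5 of 9. By p, the first was again MPRIP (3.53e-82), followed by SPTBN1 (6.73e-35), SMARCA4 (2.50e-32), NRP1 (2.03e-29) and SNRNP200 (3.49e-29). NRP1, a co-receptor of semaphorins and VEGF, has no strand in the table of starts, and its 401 bp peak had a fold of 6.08.

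Chromatin remodelling factors carried members in both lines. Of 32 listed genes, 20 had a LNCaP peak and 10 had a member, and 27 of their 90 LNCaP peaks (30%) were members, against 20.2% of all placed peaks. In PC3 16 had a peak and 6 a member, and 14 of 52 peaks (26.9%) were members, against 14.8%. Their median member fold was 7.09 in LNCaP and 6.57 in PC3, against 5.15 and 5.33 for all members. The genes with members in both lines were BAZ1B, BPTF, CHD4, EP400, SMARCA4 and SRCAP, and those in LNCaP alone were BRD9, CHD2, CHD3 and SMARCC2. Several of these genes hold more than 1 member, so the counts rest on few genes.

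CHD4, the ATPase of the NuRD deacetylase complex, had the most members of any LNCaP gene and the most after AHNAK in PC3. Its 6 LNCaP members on the gene strand lay between 2923 and 11666 bp from the span start, with folds of 9.31, 6.17, 8.46, 7.09, 6.45 and 4.13 in order from the start. Its 4 PC3 members on that strand lay between 3465 and 10477 bp, with folds of 7.52, 9.99, 11.9 and 12.5 in the same order. Each of the 6 LNCaP peaks overlapped one of the PC3 peaks. The lines thus marked the same stretch of the gene, with the lowest LNCaP fold and the highest PC3 fold at its far end.

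SMARCA4, an ATPase of the SWI/SNF complex, had 2 members in each list. The nearer, at chr19:10984338-10986195, had identical bounds in the 2 lists and a LNCaP fold of 10.99 beside a PC3 fold of 6.89. The farther spanned 7243 bp in LNCaP with a fold of 10.7 and 7418 bp in PC3 with 8.22. BPTF, a subunit of the NURF complex, had 4 LNCaP members with folds from 4.52 to 10.3 and 3 PC3 members with folds from 3.89 to 4.73. BAZ1B, a subunit of the WICH complex, had folds of 5.68 and 4.02 in LNCaP and 3.80 and 3.75 in PC3. SRCAP, which exchanges the histone variant H2A.Z, had 7.49 in LNCaP and 6.36 in PC3. Of the genes in LNCaP alone, BRD9 had the largest fold with 14.9, and all 3 of its LNCaP peaks were members.

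Histone acetylation and methylation enzymes had fewer members than the remodelling factors. Of 52 listed genes, 21 had a LNCaP peak and 8 a member. Of their 73 LNCaP peaks 11 (15.1%) were members, against 20.2% of all placed LNCaP peaks. In PC3 13 had a peak and 5 a member, with 5 of 52 peaks (9.62%), against 14.8% of all placed PC3 peaks. These counts are small, and the differences from all placed peaks were not tested. KMT2B, an H3K4 methyltransferase, had 2 LNCaP members of 201 bp each with folds of 12.1 and 13.9, and a PC3 member inside the second with 8.34. KMT2D had 2 LNCaP members with folds of 4.33 and 3.98, both within 1 PC3 member with 9.72. KMT2C had 2 LNCaP members of 76 bp at 164.5 and 264.5 bp from the span start, with folds of 6.67 and 5.59. The demethylase genes KDM3B, KDM4A, KDM4B and KDM5A and the methyltransferase gene SETD2 each had 1 LNCaP member, with folds from 4.06 to 6.08. In PC3, the acetyltransferase gene KAT6B had a member on the opposite strand with a fold of 4.003.

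Genes of cytolinkers, spectrins and actin organisers carried many peaks and, apart from AHNAK, few members. In LNCaP 15 of their 145 peaks (10.3%) in 8 genes were members, and in PC3 29 of 139 (20.9%) in 6 genes, 20 of them in AHNAK. Of all placed peaks, 20.2% in LNCaP and 14.8% in PC3 were members. AHNAK encodes a giant scaffold protein, and all 20 of its PC3 peaks were members, between 10399 and 29827 bp from the span start, with folds from 3.21 to 7.34. No LNCaP peak was placed in AHNAK. Its members were short, with a median span of 176 bp, and without them the median span of the PC3 members was 1220 bp and not 633 bp. Filamin A (FLNA) had 3 members in each line, with folds of 3.54, 5.14 and 8.87 in LNCaP and 6.64, 5.99 and 7.50 in PC3, in order from the start. Talin 1 (TLN1), which links integrins to actin, had 1 LNCaP member with 3.62 and 3 PC3 members with 7.199 to 9.08. Utrophin (UTRN) had 4 LNCaP members with 4.43 to 7.54 and 1 PC3 member with 8.001. Alpha spectrin (SPTAN1) had 2 LNCaP members with 4.61 and 3.73, both within a PC3 member of 8435 bp with 7.90. MACF1 had 2 LNCaP members, with folds of 4.88 and 4.70, and EPPK1 and PLEC had 1 each, with 3.32 and 4.81.

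**Figure D3:**
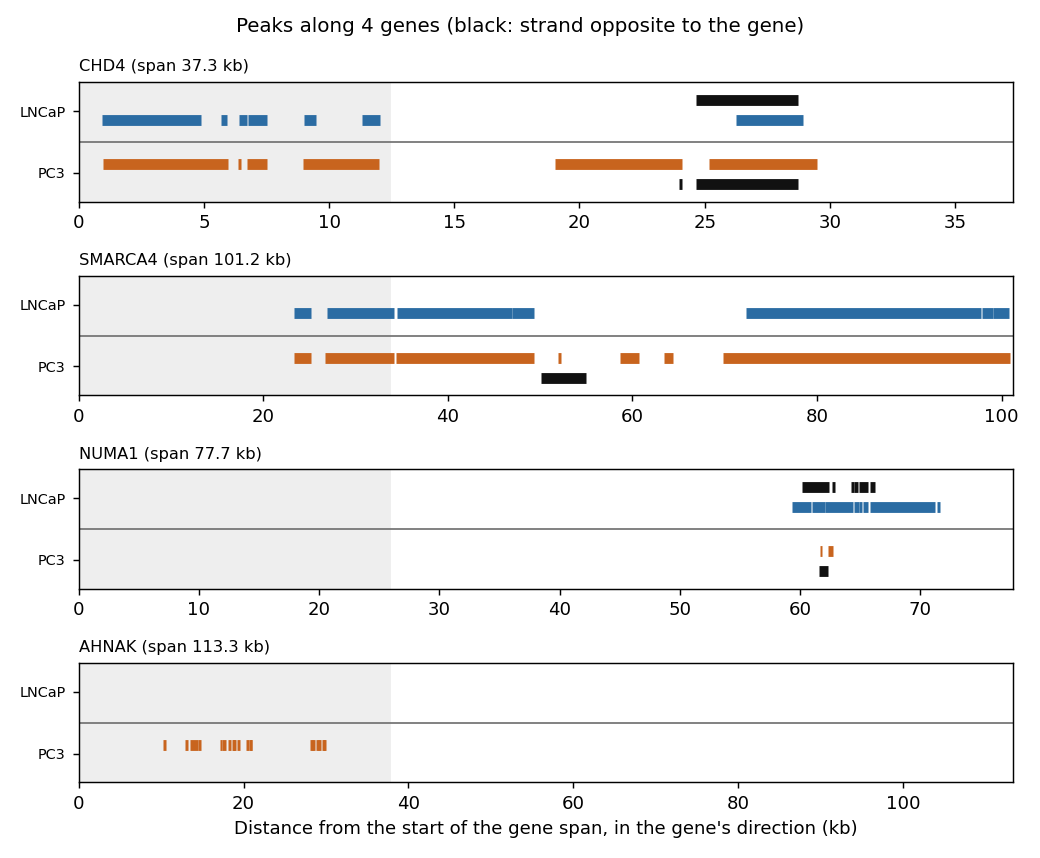
Placed peaks along CHD4, SMARCA4, NUMA1 and AHNAK, as distance from the start of the gene on its own strand (kb), with LNCaP peaks above and PC3 peaks below the line of each gene; black marks a peak on the strand opposite to the gene. The CHD4 members of the lines lie over each other, the opposite-strand peaks of NUMA1 lie over its gene-strand peaks, and AHNAK has PC3 peaks only.

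Extracellular matrix genes held 9 members among 46 LNCaP peaks (19.6%) and 2 among 20 PC3 peaks (10.0%). The shares of all placed peaks were 20.2% and 14.8%. FN1 had 2 members in each line, and both pairs overlapped, with folds of 8.63 and 6.73 in LNCaP and 5.98 and 5.36 in PC3. LAMB2, LAMC1 and COL4A5, genes of the basement membrane, had LNCaP members within 1000 bp of the span start, at 117 bp with a fold of 13.0, at 226.5 and 364.0 bp with 6.26 and 4.08, and at 243 bp with 5.38. LAMB2 had another at 1820 bp with 4.62. COL6A1 had 2 LNCaP members with 5.60 and 4.24.

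Receptor and growth signalling genes had 59 LNCaP peaks, in 10 genes, against a member share of 20.2% over all placed LNCaP peaks. Of the 59, 1 (1.69%) was a member, in the receptor phosphatase gene PTPRF with a fold of 5.67. In PC3 only MTOR had members, 2 of the list's 5 peaks (40%, against 14.8% of all placed PC3 peaks), with folds of 10.4 and 6.43. Of the list for prostate lineage and prostate cancer, 6 genes had a LNCaP peak and 3 a member, and none had a PC3 peak. Of their 12 LNCaP peaks 5 (41.7%) were members, against 20.2% of all placed LNCaP peaks, so this share rests on few peaks. ZBTB16, a transcription factor, had a 51 bp member with 10.6, and the forkhead gene FOXP1 a member of 134357 bp with 3.88. A list of peaks gives no expression level, so the lack of a PC3 peak in these genes and less of their RNA in the PC3 input cannot be told apart. Of the 21 genes of m6A writers, readers and erasers, 3 had a LNCaP peak and none had a PC3 peak, and the 1 member, in the m6A demethylase gene FTO with a fold of 6.76, lay on the opposite strand.

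On the opposite strand lay 26 of 421 LNCaP members (6.18%, 4.25 to 8.90) and 15 of 133 PC3 members (11.3%, 6.96 to 17.8), against 2.54% and 3.03% of all placed peaks. The rule itself shapes these shares, because it counts along the strand of the peak and so takes opposite-strand peaks from the last part of the gene, where peaks are many, and nothing is read from them. By the strand of the gene, the members were 26 of the 963 LNCaP peaks in the last part (2.70%, 1.85 to 3.93) and 15 of the 450 PC3 peaks there (3.33%, 2.03 to 5.43). In the middle part 21 of 685 (3.07%, 2.01 to 4.64) and 9 of 225 (4%, 2.12 to 7.43) were on the opposite strand, and in the first part 5 of 400 (1.25%, 0.535 to 2.89) and 0 of 118. The intervals of the 3 parts overlap in both lines.

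**Figure D4:**
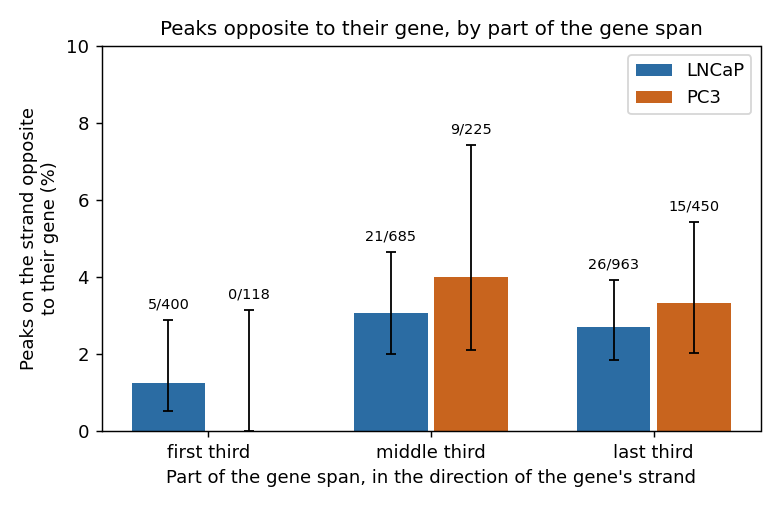
Share of peaks (%) on the strand opposite to their gene in the first, the middle and the last part of the gene span, counted in the direction of the strand of the gene, for LNCaP and PC3; error bars are 95% Wilson intervals and the numbers above them are counts. The opposite-strand members make up the counts of 26 of 963 LNCaP and 15 of 450 PC3 peaks in the last part, and the intervals of the 3 parts overlap.

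The 41 opposite-strand members of both lists lay in 28 genes, of which 7 had one in each list. Of the 41, 23 lay inside an annotated long noncoding RNA on their own strand, and 27 overlapped some annotated gene on it. By line the 23 were 16 of 26 in LNCaP and 7 of 15 in PC3. Of all placed opposite-strand peaks, 28 of 52 in LNCaP and 11 of 24 in PC3 lay inside a gene that is not protein-coding. The members were thus near the share of all such peaks. Antisense RNAs lie opposite to their gene by definition. On the gene strand, 2 of the 395 LNCaP and 0 of the 118 PC3 members lay inside a gene that is not protein-coding. Among all placed peaks on the gene strand, 12 of 1996 in LNCaP and 0 of 769 in PC3 did so. A LNCaP peak on the other strand was overlapped by 18 of the 26 opposite-strand members in LNCaP, and a PC3 peak by 13 of the 15 in PC3. Members on the gene strand, which lie at the other end of their genes, overlapped a peak on the other strand in 11 of 395 and 0 of 118 cases. Whether reads of the gene-strand RNA entered the opposite-strand peaks was not tested.

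The antisense RNA NUMA1-AS1 held more opposite-strand members than any other. It lies within NUMA1, the gene of a spindle pole protein, and 6 LNCaP members and 1 PC3 member of NUMA1 followed its strand. The LNCaP folds were 6.74, 6.97, 7.65, 7.46, 11.5 and 4.38 from its start onwards, and the PC3 fold was 3.42. The first of these LNCaP peaks began 1 bp before the annotated start of NUMA1-AS1, at the edge seen in the sequence below. All 14 LNCaP peaks of NUMA1 lay either on this strand (6) or in the last part of the gene on its own strand (8). Each of the 6 overlapped 1 to 3 of these 8 gene-strand peaks, in 1 case with nearly the same bounds, from 64.5 to 64.85 kb against 64.5 to 64.86 kb from the start of NUMA1. The sequences of NUMA1-AS1 at chr11:72014231-72014320 on the plus strand and of KIF1C-AS1 at chr17:5020064-5020153 on the minus strand show where a peak met the start of an antisense RNA, with 60 bases before and 30 from the start on, and capitals marking the bases inside the peak (RefSeq, GRCh38.p14).
NUMA1-AS1: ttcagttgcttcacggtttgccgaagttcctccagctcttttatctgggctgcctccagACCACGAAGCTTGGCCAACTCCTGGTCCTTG
KIF1C-AS1: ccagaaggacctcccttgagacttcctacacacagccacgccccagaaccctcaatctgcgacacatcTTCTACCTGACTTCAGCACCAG

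The KIF1C-AS1 peak began 8 bp after the start and had identical bounds in the 2 lists, chr17:5019638-5020085, where the LNCaP fold was 4.05 and the PC3 fold 5.98. The other opposite-strand members with identical bounds lay in TRPM2, a calcium-permeable channel gene, inside TRPM2-AS (13.2 in LNCaP, 16.8 in PC3), in MPRIP, which binds myosin phosphatase (7.10 and 18.1), in CHD4 inside CHD4-AS1 (9.02 and 6.77), in the actin-binding supervillin gene SVIL inside SVIL-AS1 (5.68 and 11.4) and in DYNC1H1, the dynein heavy chain gene (6.20 and 5.25). The SPTBN1 peak of PC3 lay inside SPTBN1-AS2, while the peaks of MPRIP, ARIH2, FTO, KAT6B and LMLN overlapped no annotated gene on their strand. In LNCaP, members also lay inside ELP4-AS1, REPIN1-AS1, RNF213-AS1, ZFPM1-AS1, HSALR1 (within PIEZO1), IPO9-AS1 (within NAV1) and SLC26A5-AS1 (within RELN), with folds from 3.94 to 13.6.

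Between the lines, 84 LNCaP members (16.7%, 13.7 to 20.3) overlapped a PC3 peak on the same strand by at least 1 bp, against 21.8% of all placed LNCaP peaks. In the other direction, 68 PC3 members (45.9%, 38.1 to 54.0) overlapped a LNCaP peak, against 44.3% of all placed PC3 peaks. With the peaks of both lists held to the largest p of the PC3 list, which leaves fewer LNCaP peaks to meet, these shares were 29.0% in LNCaP and 12.8% in PC3, so their order turned. With an overlap of at least 50% of both peaks they were 7.57% and 26.4%. Without the 20 AHNAK members, none of which overlapped a LNCaP peak, the PC3 share was 53.1%. The largest p of the PC3 list, 1.59e-05, was met by 69 LNCaP members (13.7%), against 14.9% of all LNCaP peaks. By gene, 47 genes had a member in both lists, which is 13.1% of the LNCaP and 54.0% of the PC3 genes with a member. The same share over all genes with a placed peak was not counted, so nothing about the members is read from it.

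In 73 pairs, from 45 genes, both overlapping peaks were members. The pairs hold 69 LNCaP and 62 PC3 members, so some peaks count more than once below. The fold was larger in PC3 in 36 pairs and larger in LNCaP in 37, with medians of 6.20 in LNCaP and 5.74 in PC3. The p-value was smaller in PC3 in 67 of the 73 pairs, and the depth behind each list is unknown. The genes whose lower fold was largest were TRPM2, CHD4, DYNC1H1, KMT2B, SMARCA4, CABLES2, UTRN, MPRIP, HCFC1 and SNRNP200. CABLES2, whose product binds cyclin-dependent kinases, had a pair with the same bounds and folds of 7.61 in LNCaP and 9.77 in PC3. HCFC1, a cofactor of histone-modifying enzymes, had 6.49 in LNCaP and 9.69 in PC3. The largest gap was that of EP400, with 124 in LNCaP and 5.87 in PC3. Of the 11 pairs with the same bounds, 6 were on the opposite strand and 5 on the strand of the gene. In each list 36 of all placed peaks had the same bounds in the other. Their split by strand was not counted, so nothing is read from the 6 and 5.

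**Figure D5:**
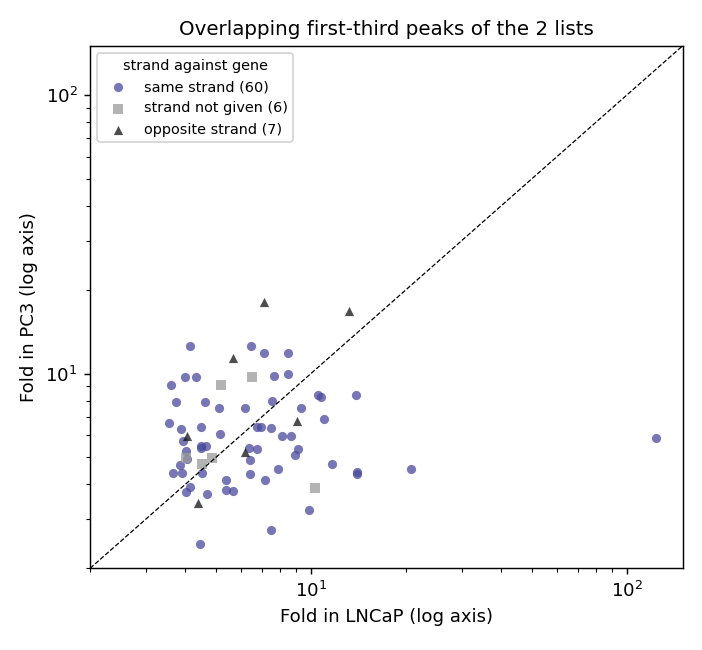
Fold in LNCaP against fold in PC3 (both log axes) for the 73 overlapping pairs of members, with colours for the strand of the peak against its gene. The pairs lie on both sides of the line of equal folds, 36 with the larger fold in PC3 and 37 in LNCaP, and the EP400 pair lies apart at 124 in LNCaP.

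SNRNP200 had 4 LNCaP members with folds from 4.50 to 6.96 and 2 PC3 members with 6.42 and 5.401, all within 7015 bp of the span start. The peaks nearest to its start, 91 bp long in LNCaP and 51 bp in PC3, had midpoints at 76.0 and 121 bp. PRPF8, the core protein of the U5 snRNP, had 5 LNCaP members, of which the one nearest to the start, with a fold of 5.39, overlapped its only PC3 member with 4.15. The 4 farther ones, at 8181 to 9000 bp, had folds of 3.10, 12.3, 12.9 and 14.3 in order from the start. RNF213, a ubiquitin ligase gene, had 3 gene-strand LNCaP members with folds of 10.0, 4.02 and 11.1, in order from the start, and DYNC1H1 had 2 in each line, with 3.95 and 10.5 in LNCaP and 5.74 and 8.37 in PC3.

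The genomic span of a member, its end minus its start plus 1 and introns included, had a median of 1016 bp in LNCaP, against 1210 bp in the middle and 689 bp in the last part. The shortest span, 51 bp, was found in 89 LNCaP members (17.7%, 14.6 to 21.3), against 10.7% and 11.4% in the middle and the last part. In PC3 19 members (12.8%) were 51 bp long. Spans over 100000 bp were found in 26 LNCaP members (5.18%), up to 602603 bp in DPP10, a potassium channel subunit gene, and in no PC3 member. Of all placed peaks, 66 of 2486 in LNCaP (2.66%) and 1 of 998 in PC3 were as long. The LNCaP share was 4.02% in the middle and 0.527% in the last part. None of these 26 members overlapped a PC3 peak, against 21.8% of all placed LNCaP peaks overlapping one, and their median fold was 6.34. The overlap of the other long LNCaP peaks was not counted. The members and other peaks nearest to the boundary of the rule were these: just inside it lay STXBP5L (33.3% of the span, fold 7.26) and SCLT1 (33.3%, 6.81) in LNCaP and DYNC1H1 (33.0%, 8.37) and LONP1 (32.9%, 4.54) in PC3. Just outside it lay ROBO2 (33.4%, 12.6) and CGN (33.7%, 12.0) in LNCaP and UBTF (33.5%, 7.32) and SPTAN1 (33.8%, 15.6) in PC3.

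The core of the m6A consensus was searched in windows of 300 bases at annotated starts, as GGAC and as GGACT on the strand of the gene. Each window held 250 bases before the start and 50 from the start on. Most of it thus lies upstream of the RNA made from that start, and sites within the RNA were not counted. GGAC was present in 66.3% of all 35116 windows, in 72.3% of the 519 windows of genes with a member and in 19 of the 26 windows whose start a member covered (73.1%, 53.9 to 86.3). GGACT was present in 25.3%, 23.7% and 30.8% (16.5 to 49.99). On the other strand GGAC was present in 66.1%, 73.6% and 69.2%. The windows of genes with a member had a median GC content of 66.7%, against 58.7% for all windows, and its part in the GGAC share was not tested. All windows came from 27305 genes, among them genes that are not protein-coding. The 335 genes with a member here are all protein-coding by the rule. The shares and GC contents thus compare unlike sets of genes, and nothing is read from their differences. The sequence inside the other members was not analysed here.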

How the data were processed

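METTL3 RIP-seq was carried out in LNCaP and PC3 with 2 IP and 2 input samples per line. The deposited data used here are 1 peak list per line, giving position, strand, a score, a fold (a linear ratio), an FDR and a p-value, all made by the authors per the file headers. The score was not used. Coordinates are on hg38, per the submitters' processing notes, which also name fastp, STAR 2.5.3a, bedtools and deepTools, with no role given. The peak caller, its settings and the handling of replicates are not given in the sources used here. The total counts, and so the depth and its precision, are unknown.

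Peaks were placed in RefSeq gene spans of GRCh38.p14 (19974 protein-coding genes, of which 15813 had a strand and starts in a second RefSeq table that is not complete). Python 3.11.15 with pandas 2.3.3, numpy 2.4.6 and scipy 1.17.1 was used, and the placement was tested on simulated data. No test was made, because each list holds 1 value per peak for a whole line, and counts, medians, 95% Wilson intervals for shares and order-statistic intervals for medians are given. They cover counting error only, and peaks of 1 gene are not independent. Whether the replicates were separate cultures is not stated.

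The members and gene lists were chosen with earlier results of these data known. Named genes are, per list, the 10 members with the largest fold at an FDR of at most 0.05, the 5 with the smallest p, the 5 genes with most members and the 5 members nearest the span start; the 10 genes of overlapping members with the largest lower fold; all listed genes with a member; and 2 peaks on either side of the boundary. The remaining named genes were chosen after their values were seen. A few items that the rule names are not reported here. Alternatives varied the p and fold admitted, the joining of peaks within 25 bp, the part of the gene, the point of the peak, the overlap and the strand.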

Additional observations from a re-analysis of the deposited data

How the results depend on the processing

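Of 70 values under alternative settings, 53 stayed within their interval, or for counts within 1.5 times, and 17 moved farther. With the peaks of both lists held to the largest PC3 p, LNCaP had 69 members, with a median fold of 7.26, a median span of 2089 bp and an overlap of 29.0%, and the PC3 overlap was 12.8%, so the order of the lines turned. With the span divided into 4 parts in place of 3, shares were 13.8% in LNCaP and 10.3% in PC3, and median distances 5800 and 7622 bp. With the 5′ end of the peak in place of its midpoint, they were 25.8% and 18.6%, and 4870 and 6877 bp. Over genes with 1 placed peak, the LNCaP share was 25.5%. With an overlap of at least 50% of both peaks, 7.57% of LNCaP and 26.4% of PC3 members were shared, and with folds of at least 4 the LNCaP share was 13.3%. The causes were not tested, apart from the smaller sets that these settings leave.

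No paired analysis was possible because the lists hold no values per replicate, and leaving out a replicate was not run for the same reason. Leaving out AHNAK, taking the 3 parts by the strand of the gene and measuring from the nearest annotated start were alternatives chosen after seeing the data. For a gene without a peak, less RNA and less METTL3 binding cannot be told apart in these lists.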
